A study of Mus musculus with 14 samples.

Results

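After partial hepatectomy, the removal of most of the liver, the remaining mouse liver grows back to its former mass. The comparison described here is the change in liver RNA between 12 h and 36 h after that operation. It was taken as the 2 arrays of the 36 h group minus the 2 arrays of the 12 h group, 4 of the 14 arrays of the series, as a log2 intensity difference for each probe set. The other groups, with 2 arrays each, are normal liver and liver at 4, 8, 48 and 72 h after the operation. All groups are of mouse liver, with total RNA labelled with biotin. The labels give no strain, sex, age or hour of day, and the times compared are 24 h apart. RNA came from the livers of 4 to 6 mice, which were pooled, and whether both arrays of a group hold separate pools is not stated in the labels. The p-values therefore measure the spread between these arrays, which may be technical. In whole liver, fewer cells of a type and less RNA per cell cannot be told apart.

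Most hepatocytes of an adult liver are out of the cell cycle. The operation first induces immediate-early and cytokine-response genes, and hepatocytes then pass through G1 and enter S phase in a wave. Before S phase, the MCM helicase is loaded onto replication origins, and the E2F transcription factors, held back by the retinoblastoma family, drive the genes of DNA replication. Genes of mitosis follow later, and many are kept silent in resting cells through a promoter element called CHR, the cell cycle genes homology region. The enzymes of cholesterol synthesis are controlled together by SREBP2, a transcription factor released from the endoplasmic reticulum when sterols are low, with the CCAAT-binding factor NF-Y as its partner on their promoters.

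The arrays of this step were close in brightness, with median intensities of 186 and 193 at 12 h and 164 and 174 at 36 h. Here and below the value of replicate 1 stands before that of replicate 2. The 2 arrays at 12 h correlated at 0.910 over all probe sets, lower than the 0.948 at 36 h and the 0.942 to 0.970 of the other groups. Replicate 2 of 8, 12, 36 and 72 h had a low ratio of 5′ to 3′ signal for the pyruvate carboxylase control, 0.0909 at 12 h and 0.105 at 36 h, against 0.478 and 0.584 in replicate 1. Each time of the step holds 1 such array, so a difference within replicate 1 or within replicate 2 compares arrays of the same kind. All 8 hepatocyte markers tested were above background at both times, among them Alb, serum albumin, at 48814 and 41241 at 12 h and 34875 and 33995 at 36 h (-0.38 on the log2 scale, limma adjusted p = 0.486). None of the 8 passed, but in 7 both 36 h arrays were dimmer than both 12 h arrays, as in 29% of all probe sets. Their median was -0.47, against -0.06 over all tested genes. The summed intensity of 27 exocrine pancreas transcripts was 66158 in replicate 2 of 36 h, against 3278 in replicate 1 and 8329 and 6297 at 12 h. The sum of 20 skeletal muscle transcripts was 5098 in that array, against 1835 in replicate 1 and 4733 and 4466 at 12 h. No member of either list passed the test between the times. The part of such RNA in the other values was not tested.

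Between 12 h and 36 h the rises included 14 of 20 cholesterol synthesis genes, 10 of 19 origin licensing genes, 9 of 23 genes of mitotic control and 10 of 33 spindle genes. The falls included 6 of 27 immediate-early genes, 6 of 28 cytokine signalling genes, 4 of 34 ribosome biogenesis genes and 4 of 23 solute carriers, so that most members of these lists did not pass. Among the largest rises were Mcm6, a subunit of the replicative helicase, the cholesterol enzyme Mvk, the surface protein Ly6d and the mitotic kinase Cdk1. Among the largest falls were Gadd45b, a stress-response gene, the small GTPase Rab30, Hamp2, a close copy of the hepcidin gene, and the haem-degrading enzyme Hmox1.

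Differences were tested with limma on log2(intensity + 57) in a fit of all 14 arrays, with Benjamini-Hochberg adjustment. Of 13576 probe sets bright enough to be tested, 597 (4.4%) passed an adjusted p of 0.05. Of these, 420 (3.09%) were higher and 177 (1.3%) lower at 36 h, for 345 and 139 genes, and 375 and 153 were at least 2-fold. Taking the brightest probe set of each of 8453 genes, 286 (3.38%) were higher and 113 (1.34%) lower, which is the background for the counts of list members below. Of the 420, 81 were not above background in either 12 h array, and for such genes the difference is given as a lower bound, "at least N-fold". Of the 177, 3 were not above background at 36 h. The background level was 103 and 138 in the 12 h arrays and 53.9 and 53.4 in the 36 h arrays. These 2 counts therefore rest on unlike limits, with the higher limit at 12 h. With only the 4 arrays of the step in the fit, which leaves 2 residual degrees of freedom, limma called 0 rises and 0 falls, while 2183 probe sets had an unadjusted p under 0.05 and the smallest adjusted p was 0.072. Without the 4 arrays of low 5′ signal, which leaves 1 array at each time of the step, limma called 9 rises and 8 falls. Without 1 array the counts were 653 and 387 (replicate 1 of 12 h left out), 341 and 146 (replicate 2 of 12 h), 162 and 53 (replicate 1 of 36 h) and 129 and 66 (replicate 2 of 36 h).

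Of the 114 genes chosen by the naming rule that passed, 89 and 77 also passed without replicate 1 or 2 of 12 h, and 46 and 50 without replicate 1 or 2 of 36 h. The 7 that passed without the 4 arrays of low 5′ signal were Cdk1, Hsd3b5, Birc5, Keg1, Pnkd, Il1r1 and Hamp2. The plot of all tested genes shows rises and falls among both dim and bright genes.

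**Figure D1:**
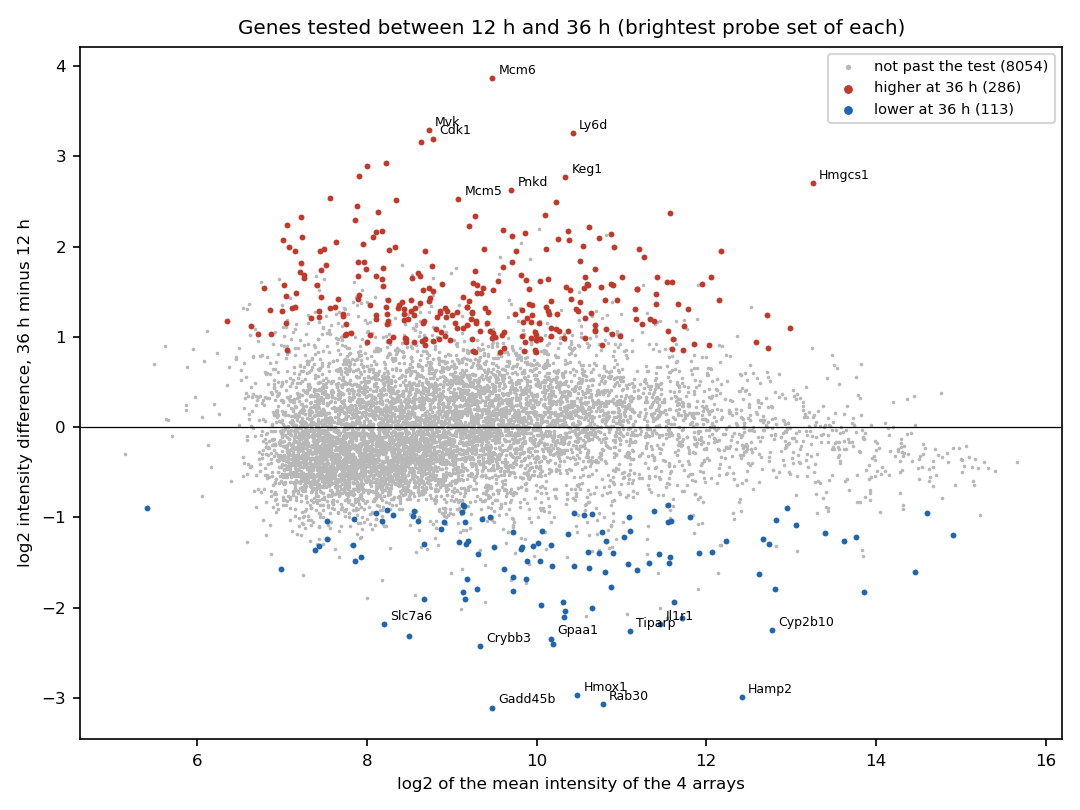
Log2 intensity difference between 36 h and 12 h (vertical axis) against log2 of the mean intensity of the 4 arrays (horizontal axis), for the brightest probe set of each of 8453 genes. Red points are the 286 genes higher at 36 h, blue points the 113 lower and grey points the 8054 that did not pass. Mcm6 lies highest, where the plotted size of genes under background at 12 h rests on the added constant, and Gadd45b, Rab30, Hamp2 and Hmox1 lie lowest.

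The 35 gene lists were described by their counts and their medians. The median over all tested genes was -0.06. Cholesterol synthesis had the highest median, 1.46, followed by origin licensing (1.33), mitotic control (0.99) and the lists of replication fork and spindle proteins (0.78 each). With genes not above background at 12 h taken at their bounds, the medians were 1.46, 1.02, 0.76 for mitotic control, 0.78 for the fork and 0.73 for the spindle, so the last 3 have no firm order. The AP-1 and immediate-early list had the lowest, -0.73, next to ribosome biogenesis (-0.70) and cytokine signalling (-0.58). Proteasome, p53 target and coagulation genes held no member that passed. The plot of the lists gives each median with the range of its members, and the range of every list crosses 0.

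**Figure D2:**
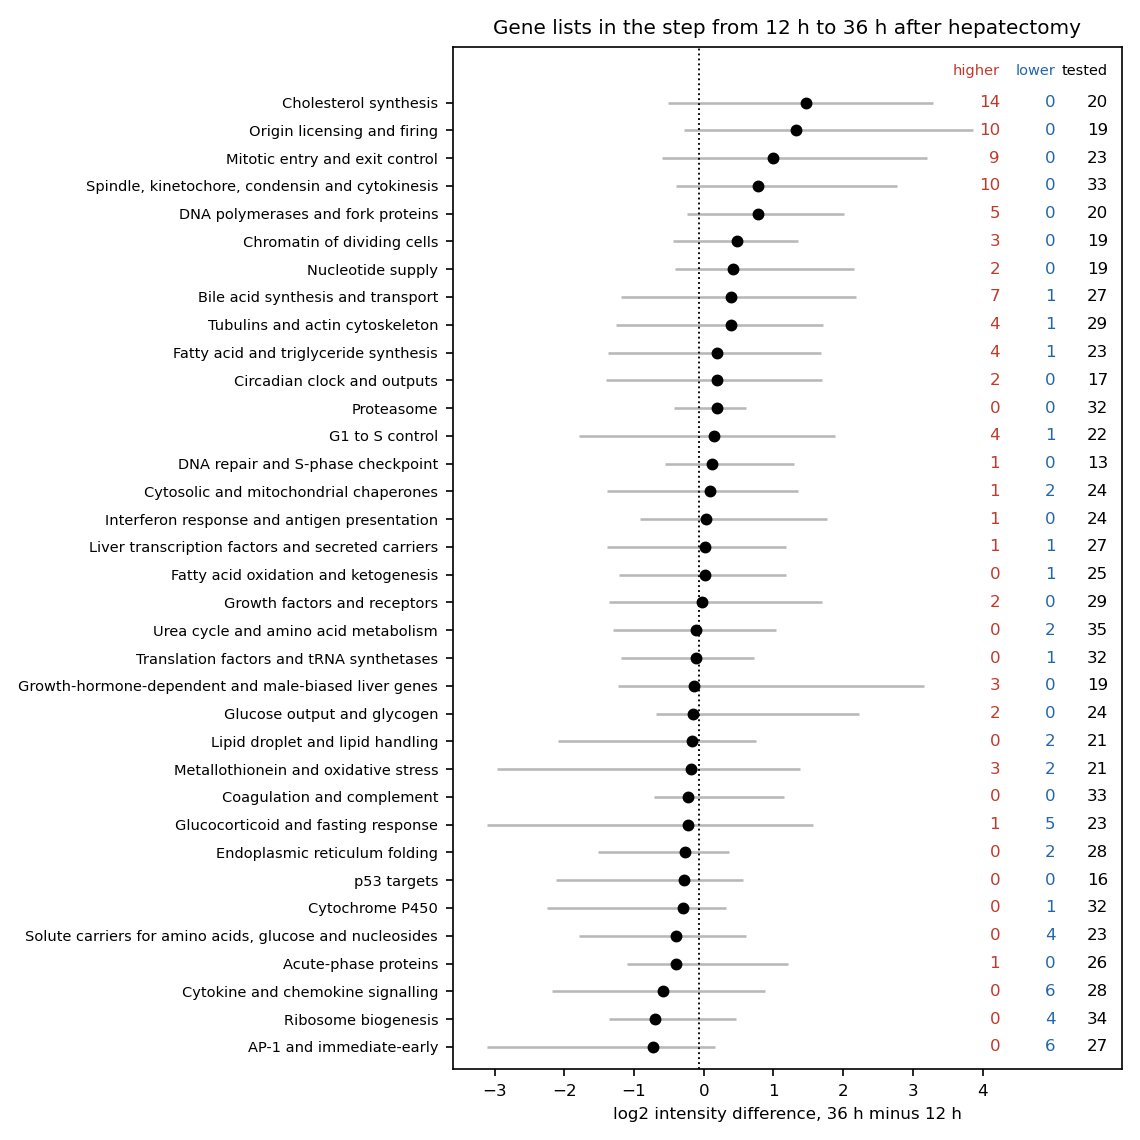
Log2 intensity difference between 36 h and 12 h in 35 gene lists, with the list median (black point), the range of its members (grey line) and the numbers of members higher, lower and tested. The dotted line is the median of all tested genes, -0.06. Cholesterol synthesis, with 14 of 20 members higher, stands at the top and the AP-1 list, with 6 of 27 lower, at the bottom.

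In the origin licensing list, 10 of 19 tested genes rose, none fell and 9 did not pass. The median was 1.33, or 1.02 with the genes not above background at 12 h taken at their bounds. The risers include 5 of the 6 subunits of the MCM helicase, its loader Cdt1, the Cdt1 inhibitor Gmnn, and Mcm10, Gins1 and Topbp1, which help to start the helicase. In 14 of the 19 both 36 h arrays were brighter than both 12 h arrays, as in 23.5% of all probe sets. The origin recognition subunits Orc2, Orc3, Orc4, Orc5 and Orc6 did not pass, with differences of -0.28 to 0.67.

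Mcm6 was at 26.3 and 60.5 at 12 h, not above background in either array, and at 1391 and 1373 at 36 h, at least 11.6-fold higher (limma, adjusted p = 0.000554). Mcm2 was at 27.9 and 29.3, also not above background, and then at 617 and 270 (at least 3.42-fold, adjusted p = 0.0149). It lost its call without replicate 2 of 12 h and without replicate 1 of 36 h. Mcm5 went from 99.3 and 141 to 1019 and 902, a rise of 2.53 on the log2 scale (SE 0.25, adjusted p = 0.000383). Mcm7 went from 319 and 322 to 1875 and 1874 (2.36, SE 0.26, adjusted p = 0.000612), and the other 3 probe sets of the gene lay at 0.73 to 1.31, with 2 past the test. As in all 420 probe sets that rose, the groups did not overlap for these 4 genes. The arrays of a time were closest for Mcm7.

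Mcm3, at 135 and 157 and then 448 and 455, rose by less (1.33, SE 0.26, adjusted p = 0.0141). Mcm4 was at 235 and 207 and then at 681 and 611, a difference of the same size (1.34, SE 0.35) that did not pass (adjusted p = 0.0506). Cdt1, which loads the helicase, rose from 339 and 274 to 898 and 813 (1.33, SE 0.24, adjusted p = 0.00896). Its inhibitor Gmnn, geminin, rose from 113 and 9.6 to 544 and 458 (2.39, SE 0.37, adjusted p = 0.004). Mcm3 and Cdt1 lost their calls without either array of 36 h. Across the list 9 genes rose without either array of 12 h, 5 and 6 without replicate 1 or 2 of 36 h and 0 without the 4 arrays of low 5′ signal, where the median was 1.28.

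Promoters of licensing genes that rose are shown because several of them hold an E2F motif. RefSeq promoter windows around the annotated start, build GRCm38.p6, were matched by gene symbol and were at hand for 6877 of the 8453 tested genes and 15 of the 19 licensing genes. The motif was searched on both strands in any of its forms TTTCCCGC, TTTCGCGC, TTTGCCGC and TTTGGCGC. It was present in 7 of the 15, and in 6 of the 8 that rose, against 4.54% of tested genes and 2.6% of all 27025 genes with a window. Among DNA polymerases and fork proteins it was present in 5 of 18, and in 1 of the 5 that rose. The windows of Mcm6, chr1:128359656-128359955 on the minus strand, and of Mcm5, chr8:75109259-75109558 on the plus strand, show it in capitals.
Mcm6: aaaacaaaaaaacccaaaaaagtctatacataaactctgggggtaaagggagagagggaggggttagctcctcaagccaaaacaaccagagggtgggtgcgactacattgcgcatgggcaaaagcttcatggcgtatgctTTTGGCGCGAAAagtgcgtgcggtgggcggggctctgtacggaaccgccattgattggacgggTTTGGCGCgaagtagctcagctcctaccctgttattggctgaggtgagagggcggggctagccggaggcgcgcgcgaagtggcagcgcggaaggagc
Mcm5: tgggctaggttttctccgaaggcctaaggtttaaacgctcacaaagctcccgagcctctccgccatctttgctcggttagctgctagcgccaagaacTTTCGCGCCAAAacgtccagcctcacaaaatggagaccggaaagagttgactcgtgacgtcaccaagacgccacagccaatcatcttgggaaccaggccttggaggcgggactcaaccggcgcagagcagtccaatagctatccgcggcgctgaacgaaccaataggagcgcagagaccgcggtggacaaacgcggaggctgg
In Mcm6 the matches start at -110, -106 and -47 from the annotated start, and the first and second overlap on opposite strands. Those of Mcm5 start at -153 and -149 and overlap in the same way. A match is a stretch of letters and no evidence of binding in these livers.

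Among DNA polymerases and fork proteins, 5 of 20 rose, none fell and 15 did not pass, with a median of 0.78. Pcna, the sliding clamp, was steady from normal liver to 12 h, where it stood at 1359 and 1215, and reached 4356 and 4025 at 36 h (1.66, SE 0.21, adjusted p = 0.00122). Rpa1, the large subunit of the single-strand binding protein, went from 428 and 725 to 2490 and 2346 (2.01, SE 0.27, adjusted p = 0.00164). Prim1, the primase subunit, Pold3, a subunit of polymerase delta, and Rfc1, of the clamp loader, rose by 1.02 to 1.21 and lost their calls without either array of 36 h and without at least 1 array of 12 h. In 15 of the 20 genes both 36 h arrays were brighter than both 12 h arrays, against 23.5% of all probe sets. The count of risers was 2 without either array of 36 h, and 0 without the 4 arrays of low 5′ signal.

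Of 19 nucleotide supply genes 2 rose and 17 did not pass. Rrm2, the regulated subunit of ribonucleotide reductase, went from 385 and 234 to 1722 and 1372 (2.15, SE 0.25, adjusted p = 0.000949), and its other 2 probe sets passed as well. Its partner Rrm1 was at 323 and 231 and then at 807 and 449, a difference of 1.0 (SE 0.34, adjusted p = 0.126). Tk1, thymidine kinase, was at 81.8 and 245 and then at 600 and 625 (1.71, SE 0.33, adjusted p = 0.0131), and lost its call without either array of 36 h. Its level at 36 h lay at the 551 and 802 of normal liver (-0.11, adjusted p = 0.913). The enzymes of purine and pyrimidine synthesis Ppat, Gart, Paics, Cad and Umps lay between -0.42 and 0.52 and did not pass.

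Genes that package new chromatin had 3 risers of 19. Hat1, which acetylates new histone H4, went from 126 and 201 to 531 and 472 (1.36, SE 0.24, adjusted p = 0.00708), with its call lost without replicate 1 of 36 h. Nap1l1, a histone chaperone, rose by 1.26 (SE 0.21, adjusted p = 0.00656), while its other 6 probe sets, at 0.06 to 0.65, did not pass. Rbbp4, a histone-binding subunit of several chromatin complexes, passed narrowly at 1.06 (SE 0.27, adjusted p = 0.0487). Its other 2 probe sets, at 0.53 and 0.81, did not pass, and its call was lost under quantile normalization. The DNA repair list had 1 riser of 13, Xrcc1, a scaffold of single-strand break repair, at least 1.55-fold higher (adjusted p = 0.0443), with a call lost without any 1 of the 4 arrays. The whole list had a median of 0.12.

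The cyclins, kinases, inhibitors and E2F factors of the G1 to S transition moved less as a group, with 4 of 22 higher, 1 lower and a median of 0.15. Ccnd1, cyclin D1, which activates the kinases of mid G1, was at 1975 and 460 at 12 h and at 3659 and 3783 at 36 h. Its rise of 1.88 (SE 0.45, adjusted p = 0.0355) was 0.87 within replicate 1 and 2.89 within replicate 2, and was not called without replicate 2 of 12 h or either array of 36 h. Its other 2 probe sets, at 1.14 and 1.74, did not pass. E2f1, an activator of S phase genes, was not above background at 12 h and was at 262 and 186 at 36 h (at least 1.85-fold, adjusted p = 0.0358), again with a call lost without any 1 array. Rbl1, a retinoblastoma relative and E2F target, was at least 1.57-fold higher (adjusted p = 0.0387). Cdkn2c, an inhibitor of the cyclin D kinases, rose from 304 and 518 to 883 and 1027 (1.15, SE 0.25, adjusted p = 0.0218).

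Ccne1, cyclin E1, was at 249 and 264 at 12 h and at 266 and 314 at 36 h, a difference of 0.14 (SE 0.32, adjusted p = 0.826). It stood at 53.7 and 119 in normal liver and was higher than there at both times (1.17 and 1.31, adjusted p = 0.0344 and 0.0411). Cdkn1a, the kinase inhibitor p21, was at 1859 and 5352 and then at 1627 and 1303 (-1.09, SE 0.37, adjusted p = 0.131). Myc, a growth-promoting transcription factor, fell from 523 and 1536 to 166 and 288 (-1.79, SE 0.39, adjusted p = 0.024), a call lost without replicate 2 of 12 h or either array of 36 h. The cell cycle genes Ccne2, Cdc6, Tyms and Ccnb1 were below the brightness limit of the test. Of the list, 3 rose without replicate 1 of 12 h, 1 without replicate 2 of 12 h and 0 without either array of 36 h.

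The mitotic genes that rose were in many cases under background at 12 h. In the list of mitotic entry and exit control 9 of 23 rose, none fell and 14 did not pass, with a median of 0.99, or 0.76 with bounds. Cdk1, the kinase that drives entry into mitosis, was at 36.1 and 44.5 at 12 h and at 931 and 748 at 36 h, at least 6.99-fold higher (adjusted p = 7.4e-05). Ube2c, which tags mitotic cyclins for destruction, was at 24.6 and 11.3 and then at 508 and 485 (at least 4.16-fold, adjusted p = 0.000552). Mad2l1, of the spindle checkpoint, was at 101 and 21.9 and then at 686 and 493 (at least 4.87-fold, adjusted p = 0.00121), and Top2a, which untangles chromosomes, was at least 3.54-fold higher (adjusted p = 0.00411). Mki67, the proliferation antigen Ki-67, was at 13.1 and 17.4 and then at 385 and 339, at least 3.03-fold higher (adjusted p = 0.00114).

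Ccna2, cyclin A2, was above background at 12 h and rose from 122 and 213 to 542 and 442 (1.32, SE 0.30, adjusted p = 0.0292). It lost its call without replicate 1 of 12 h or either array of 36 h. Foxm1, a transcription factor of mitotic genes, was at 62.2 and 259 and then at 276 and 166, with overlapping groups (0.49, SE 0.46, adjusted p = 0.567). The mitotic kinases Plk1, Aurka and Aurkb did not pass, with differences of 0.70 to 0.99. Without 1 array of the step 7 to 11 genes of the list rose, and without the 4 arrays of low 5′ signal 1 rose.

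Of 33 spindle, kinetochore, condensin and cytokinesis genes 10 rose, none fell and 23 did not pass (median 0.78, or 0.73 with bounds). Birc5, survivin, a subunit of the chromosomal passenger complex, was at 14.7 and 22 at 12 h and at 498 and 423 at 36 h, at least 3.85-fold higher (adjusted p = 7.4e-05). The condensin subunits Smc2 and Ncapg2 were at least 2.38-fold and 2.17-fold higher (adjusted p = 0.00401 and 0.00246). Stmn1, which destabilises microtubules, was above background throughout and rose from 363 and 461 to 2003 and 1579 (1.98, SE 0.24, adjusted p = 0.000985). Spc25, of the kinetochore, rose by 1.67 (SE 0.40, adjusted p = 0.035) and lost its call without any 1 of the 4 arrays. The list had 9 and 8 risers without replicate 1 or 2 of 12 h, 5 and 6 without replicate 1 or 2 of 36 h and 1 without the 4 arrays of low 5′ signal.

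The CHR motif, TTTGAA on either strand, was present in the promoter windows of 10 of 18 genes of mitotic control, and in 6 of the 7 that rose and had a window. It was found in 20 of 28 spindle genes, and in 4 of the 6 that rose and had a window. Of licensing genes 2 of 15 held it. The share was 14.3% of tested genes and 20.2% of all genes with a window. Windows are shown for Cdk1, chr10:69352863-69353162 on the minus strand, and Ube2c, chr2:164769679-164769978 on the plus strand. These were taken as the named genes of mitotic control with the largest fitted rise, a size that rests on the added constant. Capitals mark the motif, and TTCAAA is its reverse complement.
Cdk1: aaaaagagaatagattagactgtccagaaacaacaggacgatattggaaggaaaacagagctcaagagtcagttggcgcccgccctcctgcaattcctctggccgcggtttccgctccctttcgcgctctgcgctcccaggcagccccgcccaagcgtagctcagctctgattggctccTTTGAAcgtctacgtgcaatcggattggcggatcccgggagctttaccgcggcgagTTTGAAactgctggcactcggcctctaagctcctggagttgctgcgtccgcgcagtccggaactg
Ube2c: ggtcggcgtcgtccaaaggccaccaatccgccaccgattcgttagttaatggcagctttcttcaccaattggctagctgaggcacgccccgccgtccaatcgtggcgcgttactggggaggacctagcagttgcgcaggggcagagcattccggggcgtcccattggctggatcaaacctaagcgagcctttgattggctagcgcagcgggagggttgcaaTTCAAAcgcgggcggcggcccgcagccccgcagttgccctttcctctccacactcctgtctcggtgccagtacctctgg
The matches start at -71 and -15 in Cdk1 and at -29 in Ube2c. The motif is short, and its share among all promoters is the background to these counts.

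The next step of the series, from 36 h to 48 h, shares the 36 h arrays with the present one and is given for the same genes. Over all probe sets limma called 28 (0.206%) higher and 35 (0.258%) lower at 48 h than at 36 h. In the licensing list and in the fork list 0 genes passed in either direction. Mcm6 was at 1128 and 1203 at 48 h (-0.24, SE 0.41, adjusted p = 0.901), Mcm5 at 853 and 999.8 (-0.05, SE 0.25, adjusted p = 0.972) and Pcna at 3703 and 4179 (-0.09, SE 0.21, adjusted p = 0.937). Of the mitotic lists, 6 of 23 genes of mitotic control and 7 of 33 spindle genes were higher at 48 h than at 36 h, and none lower. Cdk1 reached 2306 and 2856 (1.56, SE 0.23, adjusted p = 0.0104), Ube2c 2241 and 3270 (2.32, SE 0.30, adjusted p = 0.00835), Birc5 1573 and 1546 (1.65, SE 0.20, adjusted p = 0.00835) and Stmn1 5176 and 5936 (1.61, SE 0.24, adjusted p = 0.0107).

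The difference between the steps was tested as a contrast of its own. The step to 36 h exceeded the step to 48 h in 46 probe sets (0.339%) and was below it in 13 (0.0958%). Of the licensing genes 2 of 19 passed this contrast upward, Mcm5 by 2.58 (adjusted p = 0.0231) and Mcm6 (adjusted p = 0.0302), and of the mitotic and spindle lists 0 passed. Set against the preceding step from 8 h to 12 h, which shares the 12 h arrays, the step to 36 h was higher in 120 probe sets (0.884%) and lower in 28 (0.206%). Those higher include 12 of 27 exocrine pancreas transcripts and 2 of 20 skeletal muscle transcripts. The summed pancreas intensity was 407510 and 379910 at 8 h, against 8329 and 6297 at 12 h. Of the cell cycle lists, 4 of 19 licensing genes passed this contrast upward, 4 of 23 genes of mitotic control and 3 of 33 spindle genes. They include Mcm5 (2.70, adjusted p = 0.0173), Mcm7 (2.37, adjusted p = 0.0298), Stmn1 (2.08, adjusted p = 0.0392), Cdk1 (adjusted p = 0.0118) and Birc5 (adjusted p = 0.00922). No size is given for Mcm6, Cdk1 and Birc5, which were not above background at 12 h. In the plot of single genes over time, the replication genes lie at 48 h near their level of 36 h and the mitotic genes rise further to 48 h.

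**Figure D3:**
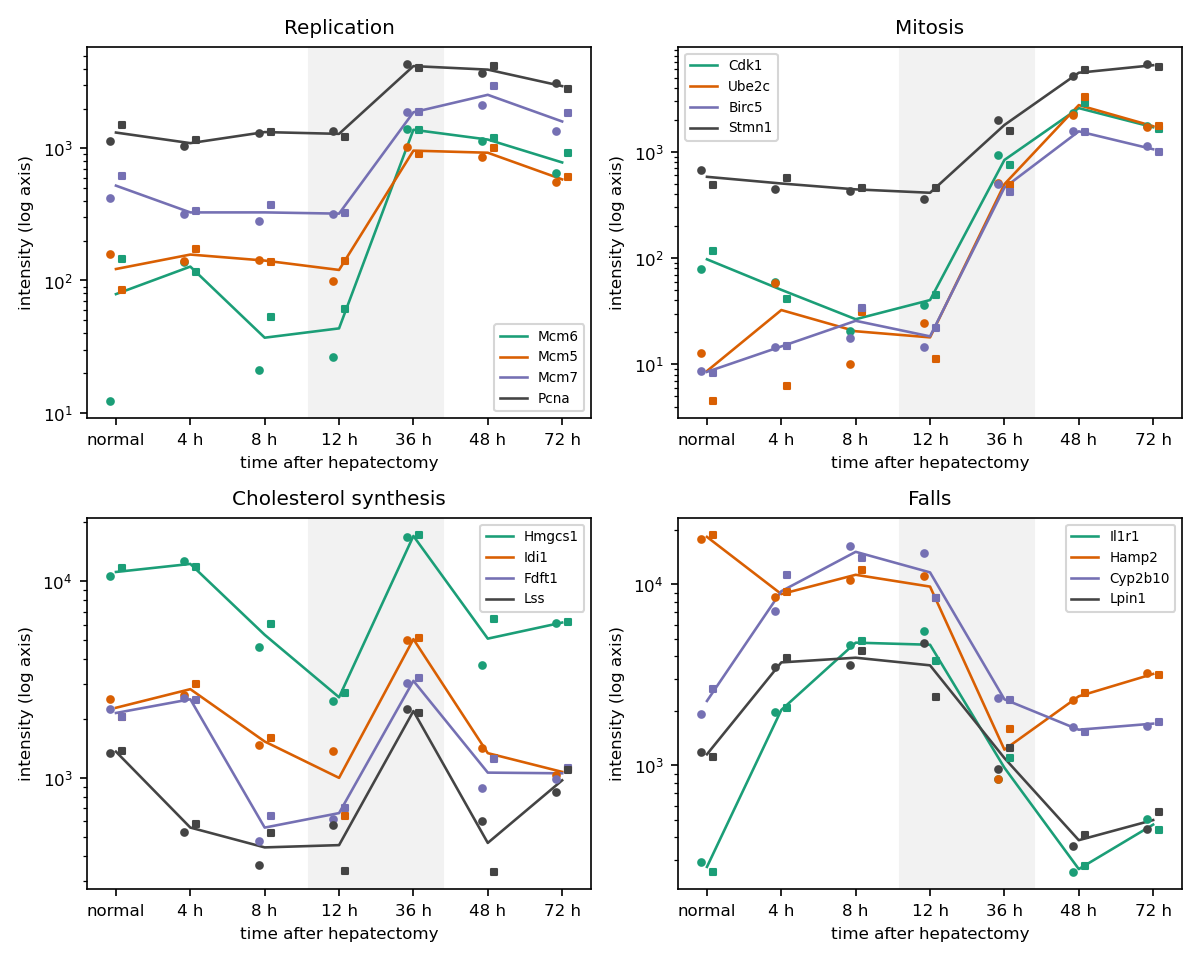
Intensity on a log axis against time after hepatectomy for 16 genes in 4 panels, with circles for replicate 1, squares for replicate 2 and lines through the mean of the 2 arrays. The grey band marks the step from 12 h to 36 h. Mcm6, Mcm5, Mcm7 and Pcna stay high at 48 h, Cdk1, Ube2c, Birc5 and Stmn1 are higher at 48 h, and the 4 cholesterol genes are lower at 48 h than at 36 h.

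Cholesterol synthesis was the list with the largest share of risers, 14 of 20, with 6 that did not pass and a median of 1.46. The risers include enzymes from HMG-CoA synthesis to the last sterol steps. Hmgcs1, which makes the precursor HMG-CoA, was at 2446 and 2692 at 12 h and at 16763 and 17206 at 36 h (2.70, SE 0.26, adjusted p = 0.000368), and its other 3 probe sets passed too, at 2.14 to 2.49. Mvk, mevalonate kinase, was at 14.7 and 53.1, not above background, and then at 855 and 772, at least 6.8-fold higher (adjusted p = 0.000368). Idi1, which isomerises the isoprenoid unit, went from 1363 and 637 to 5006 and 5146 (2.37, SE 0.29, adjusted p = 0.00105). Fdft1, squalene synthase, went from 618 and 706 to 3026 and 3203 (2.14, SE 0.23, adjusted p = 0.000612), and Lss, which closes the sterol rings, from 574 and 336 to 2245 and 2128 (2.17, SE 0.31, adjusted p = 0.00233). No groups overlapped among these 5 genes, as for all 420 probe sets that rose. Each rose by at least 1.83 within replicate 1 and within replicate 2.

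The other risers were Pmvk, Fdps, Sqle, Cyp51, Msmo1, Nsdhl, Sc5d, Dhcr7 and Stard4, at 0.99 to 2.07. They were named after their values were seen. Mvd, Hsd17b7, Ebp, Tm7sf2, Insig2 and Srebf2, the gene of SREBP2 itself, lay between -0.51 and 0.54 and did not pass. Without 1 array the count of risers was 13 and 10 (replicate 1 or 2 of 12 h) and 8 and 9 (replicate 1 or 2 of 36 h), and it was 0 without the 4 arrays of low 5′ signal, where the median was 1.38.

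The same genes are given against normal liver, in comparisons that share the 12 h or the 36 h arrays. The list median was -1.06 at 12 h against normal liver, 0.21 at 36 h against normal liver and -1.11 at 48 h against 36 h. Hmgcs1 was at 10628 and 11659 in normal liver, below it at 12 h (-2.09, adjusted p = 0.000571), and not past the test against it at 36 h (0.61, adjusted p = 0.233). At 48 h it was back at 3751 and 6458 (-1.77 against 36 h, SE 0.26, adjusted p = 0.0104). At 48 h 8 of the 20 genes were lower than at 36 h, among them Idi1 (1412 and 1258), Fdft1 (883 and 1243) and Lss (602 and 331). The contrast of the step to 36 h with the step to 48 h passed upward in 9 of the 20, by 4.47 for Hmgcs1 (adjusted p = 0.00228) and 4.32 for Lss (adjusted p = 0.004). Mvk passed too (adjusted p = 0.00263), with no size given because it was not above background at 12 h.

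The pentamer CCAAT, on either strand, was in the promoter windows of 16 of 16 cholesterol genes that had one, against 42.6% of tested genes. Some genes have several windows, and by window it was in 16 of 21, against 37.2%. It is not particular to this list, with 14 of 18 genes of mitotic control, 19 of 28 spindle genes and 9 of 15 licensing genes. In the fork list 8 of 18 genes held it, and in the AP-1 list 10 of 22. The sterol regulatory element TCACNCCAC was in 1 of the 16 cholesterol genes, Hmgcs1, against 1.51% of tested genes. The windows of Mvk, chr5:114444019-114444318 on the plus strand, and Hmgcs1, chr13:119690101-119690400 on the plus strand, have the CCAAT matches in capitals, where ATTGG is the reverse complement.
Mvk: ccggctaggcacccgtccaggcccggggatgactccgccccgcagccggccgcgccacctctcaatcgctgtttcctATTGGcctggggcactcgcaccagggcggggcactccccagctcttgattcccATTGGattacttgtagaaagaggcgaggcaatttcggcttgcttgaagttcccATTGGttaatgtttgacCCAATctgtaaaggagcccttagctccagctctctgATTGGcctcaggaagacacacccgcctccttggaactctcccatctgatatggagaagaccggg
Hmgcs1: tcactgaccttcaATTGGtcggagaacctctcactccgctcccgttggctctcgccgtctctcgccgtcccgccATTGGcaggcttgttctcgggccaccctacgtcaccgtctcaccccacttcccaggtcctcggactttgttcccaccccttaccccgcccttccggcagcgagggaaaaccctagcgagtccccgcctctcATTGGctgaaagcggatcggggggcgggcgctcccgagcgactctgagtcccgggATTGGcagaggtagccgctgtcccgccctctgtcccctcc
Mvk holds 5 matches, at -173, -120, -67, -50 and -14, and Hmgcs1 holds 4, at -237, -176, -45 and 10.

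Fatty acid synthesis did not follow as a list, with 4 of 23 higher, 1 lower and a median of 0.19. Elovl6 and Elovl1, which lengthen fatty acids, were 1.39 (SE 0.26, adjusted p = 0.00976) and 1.31 higher (SE 0.23, adjusted p = 0.00728). Acly, which makes cytosolic acetyl-CoA, went from 938 and 2225 to 3544 and 4119 (1.36, SE 0.34, adjusted p = 0.0404), and Gpam, which starts glycerolipid synthesis, rose by 1.06 (SE 0.26, adjusted p = 0.0418). Fasn, fatty acid synthase, was at 2727 and 2613 and then at 2040 and 2598 (-0.21, SE 0.23, adjusted p = 0.635). Scd1, stearoyl-CoA desaturase, fell from 35169 and 30529 to 18299 and 15720 (-0.95, SE 0.24, adjusted p = 0.0478), a call that was lost without any 1 of the 4 arrays and under quantile normalization. All 4 risers lost their calls without either array of 36 h.

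Of 27 genes of bile acid synthesis and transport 7 rose, 1 fell and 19 did not pass, with a median of 0.39. Cyp7a1, which catalyses the slowest step from cholesterol to bile acids, went from 191 and 308 to 1360 and 1259 (2.18, SE 0.30, adjusted p = 0.00195) and stood at 1104 and 1348 in normal liver. Nr0b2, the repressor SHP, went from 215 and 491 to 1380 and 1261 (1.83, SE 0.34, adjusted p = 0.00983). Klb, the co-receptor of the intestinal bile acid signal FGF15, went from 216 and 198 to 704 and 583 (1.40, SE 0.22, adjusted p = 0.00416). The xenobiotic receptor gene Nr1i3 (1.53, SE 0.33, adjusted p = 0.0233) and the phospholipid exporter gene Abcb4 (1.24, SE 0.27, adjusted p = 0.0233) rose as well, with the bile salt pump gene Abcb11 (1.12, adjusted p = 0.0247) and the receptor gene Nr5a2 (0.88, SE 0.22, adjusted p = 0.0405), whose other 2 probe sets, at 0.22 and 0.72, did not pass. Cyp27a1, of the alternative synthesis route, fell by 1.03 (adjusted p = 0.0179), and Abcb11 and Cyp27a1 were named after their values were seen. At 36 h the list as a whole had 0 genes above normal liver and 7 below it, against a background of 310 probe sets higher (2.28%) and 256 lower (1.89%). Without replicate 1 or 2 of 36 h the count of risers was 1 and 2, and without the 4 arrays of low 5′ signal it was 0.

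A few further genes that hepatocytes express rose from values under normal liver, while 0 of the 8 hepatocyte markers did. Keg1, an acyltransferase-like gene, went from 238 and 348 to 2396 and 2198 (2.77, SE 0.24, adjusted p = 0.00027), still below the 6975 and 6039 of normal liver (-1.48, adjusted p = 0.00535). Hsd3b5, a male-biased steroid dehydrogenase, was at 7.8 and 69.3 and then at 904 and 618, at least 6.26-fold higher (adjusted p = 0.00166), and below normal liver at 36 h (-2.22, adjusted p = 0.0115). Its close relatives make the probe set uncertain. In the list of growth-hormone-dependent and male-biased genes 3 of 19 rose, with Igfals, the carrier of insulin-like growth factors, as the other (1.33, SE 0.34, adjusted p = 0.0453), and the median was -0.14. Ppp1r3c, which targets a phosphatase to glycogen, went from 290 and 86.1 to 1044 and 932 (2.23, SE 0.34, adjusted p = 0.00378). Inhbc, an activin subunit of hepatocytes, rose by 1.69 (SE 0.26, adjusted p = 0.00394), and Igtp, an interferon-induced GTPase, by 1.77 (SE 0.25, adjusted p = 0.00246).

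Cytoskeletal genes had 4 risers and 1 fall among 29, with a median of 0.39. Tubb5, a beta tubulin, went from 1745 and 1168 to 3922 and 5071 (1.60, SE 0.26, adjusted p = 0.00464), with its other probe set at 0.47 and not past the test. S100a6, a calcium-binding protein of proliferating cells, was at least 3.1-fold higher (adjusted p = 0.00584). Tmsb10, which binds actin monomers, rose by 1.41 (SE 0.31, adjusted p = 0.024), and Anxa5, which binds membranes, reached 3647 and 3504 from 1129 and 2068 (1.19, SE 0.30, adjusted p = 0.0443). Actg1, cytoplasmic actin, fell from 19059 and 16735 to 7110 and 7710 (-1.26, SE 0.22, adjusted p = 0.00837) and was still above normal liver (1.09, adjusted p = 0.0183). Of all probe sets 2.28% were above normal liver at 36 h. No riser was called without replicate 2 of 36 h, the array with the high pancreas sum, and 13 of the 29 were above normal liver at 36 h.

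Chaperones moved in both directions. The metallothionein and oxidative stress list had 3 risers, the detoxifying enzymes named below, and 2 falls among 21. Of 24 cytosolic and mitochondrial chaperones Hsph1 rose, from 282 and 283 to 723 and 772 (1.24, SE 0.22, adjusted p = 0.00783), and Hspb8 and Bag3, which act together in removing damaged proteins, fell (-1.39, SE 0.25, adjusted p = 0.00905 for Hspb8, and -1.16, SE 0.27, adjusted p = 0.0341 for Bag3). The glutathione transferases Gsta4 (1.38, SE 0.33, adjusted p = 0.0341) and Gstm2 (0.87, SE 0.21, adjusted p = 0.0337) and the enzyme Ugdh, which makes the donor for glucuronidation (0.86, SE 0.19, adjusted p = 0.0264), rose. The glycolytic enzyme Tpi1 rose by 0.95 (SE 0.22, adjusted p = 0.0282). In metabolism of amino acids Aass, of lysine breakdown, and Asl, of the urea cycle, fell (-1.24, SE 0.26, adjusted p = 0.0174 for Aass, and -1.30, SE 0.26, adjusted p = 0.0144 for Asl), 2 of 35 genes. Acaa1b, of peroxisomal fatty acid oxidation, fell by 1.22 (SE 0.30, adjusted p = 0.0403), and Eif1a, a translation initiation factor, by 1.18 (SE 0.22, adjusted p = 0.00917), each the only gene of its list to pass. All 11 of these genes lost the call without replicate 2 of 36 h, and all but Hspb8 also without replicate 1 of 36 h.

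Among the leading rises, 3 genes lay outside the lists. Ly6d, a surface protein, was at 312 and 141 at 12 h, 2701 and 2352 at 36 h and 587 and 613 at 48 h, and rose by 3.25 (SE 0.42, adjusted p = 0.00148). It had been at 30.6 and 6.4 in normal liver. Selenoh, a nucleolar selenoprotein, was at 28.4 and 23.3 and then at 576 and 572 (at least 4.81-fold, adjusted p = 0.00106). Pnkd went from 167 and 216 to 1600 and 1351 (2.63, SE 0.25, adjusted p = 0.000366), while its other probe set, at 0.91, did not pass.

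The clock list had 2 risers of 17. Dbp, an output of the circadian clock, was at 346 and 254 at 12 h, 908 and 844 at 36 h and 262 and 208 at 48 h, rising by 1.40 (SE 0.25, adjusted p = 0.00783) and falling by 1.68 in the next step (SE 0.25, adjusted p = 0.0104). Nampt, an enzyme of NAD synthesis, rose by 0.85 (SE 0.21, adjusted p = 0.0436), with its other probe set at -0.56. Per1, Bhlhe40 and Nr1d1, at -1.40, -1.24 and -1.14, did not pass. Dbp lost its call without either array of 36 h. The labels give no hour of day, so the part of sampling time in these values was not tested.

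Fewer falls than rises passed the test. Without a test, 29% of all probe sets were lower with no overlap and 23.5% higher. Of the 177 probe sets that fell, 30 had 12 h arrays that differed 2-fold or more, with replicate 2 the brighter in 24 of them, against 43 of the 420 that rose. In the AP-1 and immediate-early list, genes that respond within minutes to growth and stress signals, 6 of 27 fell, none rose and 21 did not pass, with a median of -0.73. Both 36 h arrays were dimmer than both 12 h arrays in 17 of the 27, as in 29% of all probe sets. The median was -0.27 within replicate 1 and -1.60 within replicate 2. The count of falls was 14 without replicate 1 of 12 h, 5 without replicate 2 of 12 h, 2 and 3 without replicate 1 or 2 of 36 h and 0 without the 4 arrays of low 5′ signal.

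Gadd45b was at 248 and 2515 at 12 h and at 37.8 and 54.6 at 36 h (-3.11, SE 0.66, adjusted p = 0.0206). The 12 h arrays lay far apart, the call was lost without either array of 36 h, and the gene's other 2 probe sets, at -0.95 and -0.70, did not pass. Zfp36, which marks cytokine messages for decay, fell from 4050 and 6048 to 1177 and 1325 (-1.94, SE 0.28, adjusted p = 0.00246). Klf10, a transcription factor induced by TGF-beta, fell from 619 and 1271 to 178 and 219 (-1.90, SE 0.29, adjusted p = 0.00378). Both were called without any 1 array of the step. Gadd45g (-2.11, SE 0.41, adjusted p = 0.0133) and the small GTPase gene Rhob (-1.52, SE 0.25, adjusted p = 0.00555) fell too, as did Jun (-1.49, adjusted p = 0.0177), the partner of Fos in AP-1, which was named after its value was seen. Fos, Junb and Egr1 did not pass, and Egr1 was at 1674 and 13349 at 12 h and at 1245 and 1831 at 36 h.

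Of 28 cytokine and chemokine signalling genes 6 fell, none rose and 22 did not pass, with a median of -0.58. Il1r1, the interleukin 1 receptor, fell from 5526 and 3753 to 841 and 1101 (-2.18, SE 0.24, adjusted p = 0.000612). It was at 293 and 258 in normal liver and returned to 257 and 278 at 48 h (-1.65 against 36 h, SE 0.24, adjusted p = 0.00971). Socs3, the feedback inhibitor of interleukin 6 signalling, fell from 1918 and 4029 to 947 and 630 (-1.77, SE 0.33, adjusted p = 0.00991), a call lost without replicate 2 of either time. Cebpb and Cebpd, transcription factors of the acute-phase response, fell (-1.38, SE 0.26, adjusted p = 0.0114 for Cebpb, and -1.33, SE 0.26, adjusted p = 0.0149 for Cebpd), and the chemokine Cxcl10 fell by 1.48 (SE 0.35, adjusted p = 0.0341). The list had 11 falls without replicate 1 of 12 h, 1 without replicate 2 of 12 h, 3 and 2 without replicate 1 or 2 of 36 h and 1 without the 4 arrays of low 5′ signal. Of 17 markers of Kupffer cells and macrophages, which make and answer these signals, 1 rose and none fell, with a median of 0.49 and a summed intensity of 10609 and 11348 at 12 h and 13802 and 14806 at 36 h. Their part in the cytokine values was not tested.

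Of 26 acute-phase genes 1 passed the test, higher at 36 h. The median was -0.40, or -0.06 under quantile normalization. In 12 of the 26 both 36 h arrays were dimmer than both 12 h arrays, against 29% of all probe sets. In 3 both were brighter, against 23.5%. At 36 h 7 of the 26 were above normal liver, against 2.28% of all probe sets. Saa1, serum amyloid A, was at 49876 and 28516 at 12 h and at 31091 and 23103 at 36 h (-0.49, SE 0.29, adjusted p = 0.379), far above the 1041 and 1066 of normal liver. Lcn2, lipocalin 2, was at 45690 and 9918 and then at 28851 and 26817, with the 36 h arrays between those of 12 h (0.38, SE 0.49, adjusted p = 0.69). Without replicate 1 of 12 h it was 1.48 higher and passed, and without replicate 2 of 12 h it was at -0.71 and did not. The gene that passed was Saa4, the constitutive serum amyloid, which rose by 1.20 (SE 0.28, adjusted p = 0.0292). Its probe set may cross-react with its relatives, and the call was lost without replicate 2 of 12 h or either array of 36 h.

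Hamp2, a close copy of the gene of hepcidin, the hormone that blocks iron export, fell from 11063 and 8377 to 846 and 1599 (-2.99, SE 0.27, adjusted p = 0.000366). It was at 17810 and 18765 in normal liver. Hamp, which the probe set may also detect, had its own probe set at -0.90 and did not pass. Cyp2b10, a cytochrome P450 induced by foreign compounds, fell from 14827 and 8461 to 2345 and 2291 (-2.25, SE 0.30, adjusted p = 0.00164), and its 2 other probe sets fell by 1.98 and 2.37. In the list of 32 cytochrome P450 genes of drug and steroid oxidation, which leaves out those of bile acid and cholesterol synthesis, no other gene passed. Both were called without any 1 array of the step.

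In the glucocorticoid and fasting list 5 of 23 fell, 1 rose and the median was -0.23. Its falls include Cebpb, counted also in the cytokine list, and Gadd45b, counted also in the AP-1 list. Lpin1, a phosphatidate phosphatase and coactivator, fell from 4751 and 2391 to 951 and 1246 (-1.58, SE 0.30, adjusted p = 0.0106). Angptl4, an inhibitor of lipoprotein lipase, fell from 4904 and 4723 to 2292 and 2480 (-0.996, SE 0.20, adjusted p = 0.0146). Klf15, which controls genes of amino acid breakdown, rose from 345 and 239 to 958 and 980 (1.57, SE 0.25, adjusted p = 0.00426) and remained below normal liver (-1.12, adjusted p = 0.0267). Cidec, a lipid droplet protein, fell from 3163 and 1152 to 729 and 533 (-1.53, SE 0.36, adjusted p = 0.0324), and Pnpla2, the lipase that opens droplets, fell by 0.92 (SE 0.23, adjusted p = 0.0399). The falls in the glucocorticoid list numbered 7 and 3 without replicate 1 or 2 of 12 h, and 0 and 1 without replicate 1 or 2 of 36 h. Cidec and Pnpla2 lost their calls without replicate 1 of 12 h or either array of 36 h.

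Ribosome biogenesis had 4 falls among 34 genes, no rise and a median of -0.70. In 22 of the genes both 36 h arrays were dimmer than both 12 h arrays, against 29% of all probe sets. Gar1, of the small nucleolar particles that modify ribosomal RNA, fell from 813 and 770 to 274 and 316 (-1.27, SE 0.23, adjusted p = 0.00976). Gnl2 and Gnl3, nucleolar GTPases, fell (-1.35, SE 0.28, adjusted p = 0.0181 for Gnl2, and -0.97, SE 0.22, adjusted p = 0.0306 for Gnl3), and Mybbp1a fell by 1.31 (SE 0.28, adjusted p = 0.0218). Gnl3 was still above normal liver at 36 h (0.89, adjusted p = 0.0464). The median was -0.84 within replicate 1 and -0.50 within replicate 2, and 0 and 1 genes fell without replicate 1 or 2 of 36 h.

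Carriers and folding factors fell in small numbers. Of 23 solute carriers 4 fell and none rose, with a median of -0.39. Slc3a2, the heavy chain of amino acid exchangers, fell from 4700 and 3469 to 1464 and 1521 (-1.40, SE 0.22, adjusted p = 0.00462), and Slc20a1, a phosphate carrier, from 2664 and 2949 to 1030 and 1034 (-1.39, SE 0.22, adjusted p = 0.00422). Both were called without any 1 array of the step. Slc39a14, a zinc and iron carrier of the acute-phase response, fell by 1.79 (SE 0.30, adjusted p = 0.00634) and Slc38a2, an amino acid carrier, by 1.15 (SE 0.24, adjusted p = 0.0211). The list had 2 falls without replicate 1 of 36 h and 0 without the 4 arrays of low 5′ signal. Of 28 genes of folding in the endoplasmic reticulum 2 fell, Xbp1 (15416 and 14611 to 6135 and 7141, -1.17, SE 0.21, adjusted p = 0.0074) and Atf4 (-1.04, SE 0.25, adjusted p = 0.035), both transcription factors of the stress response. Xbp1 lost its call without replicate 1 of 36 h and Atf4 without replicate 2 of 12 h or either array of 36 h. The median of that list was -0.27, and Hspa5, its main chaperone, was at 33578 and 12704 and then at 11618 and 9989.

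Several of the leading falls had 12 h arrays that lay far apart. Rab30 went from 956 and 5607 to 186 and 279 (-3.07, SE 0.56, adjusted p = 0.00976). Hmox1 went from 987 and 4187 to 435 and 90.3 (-2.97, SE 0.63, adjusted p = 0.0206), with differences of -1.09 within replicate 1 and -4.85 within replicate 2, and lost its call without replicate 2 of either time. Ifrd1, a regulator of transcription in regenerating tissue, went from 1032 and 3037 to 215 and 384 (-2.41, SE 0.40, adjusted p = 0.00555). In these 3 genes replicate 2 of 12 h was the brightest array of the step, and Rab30 and Ifrd1 lost their calls without replicate 1 of 36 h. Crybb3, a lens crystallin gene, fell from 1267 and 984 to 166 and 157 (-2.43, SE 0.40, adjusted p = 0.00504), and it was called without any 1 array of the step.

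Tiparp (-2.26, SE 0.56, adjusted p = 0.0428), Rusc2 (-2.32, SE 0.53, adjusted p = 0.0293), Slc7a6 (-2.18, SE 0.48, adjusted p = 0.0237) and Gpaa1 (-2.34, SE 0.54, adjusted p = 0.0297) complete the leading falls. All 4 lost their calls without replicate 2 of 12 h or either array of 36 h, and the other probe set of Gpaa1 lay at 0.40. Of the metallothioneins, zinc-binding proteins of the stress response, Mt2 fell from 41767 and 43446 to 15776 and 21978 (-1.19, SE 0.29, adjusted p = 0.0404), with a call lost without any 1 array. Mt1 went from 58004 and 44070 to 25648 and 25865 and did not pass (-0.97, SE 0.26, adjusted p = 0.0583). The plot by replicate number shows how far the arrays of the same number moved in each gene.

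**Figure D4:**
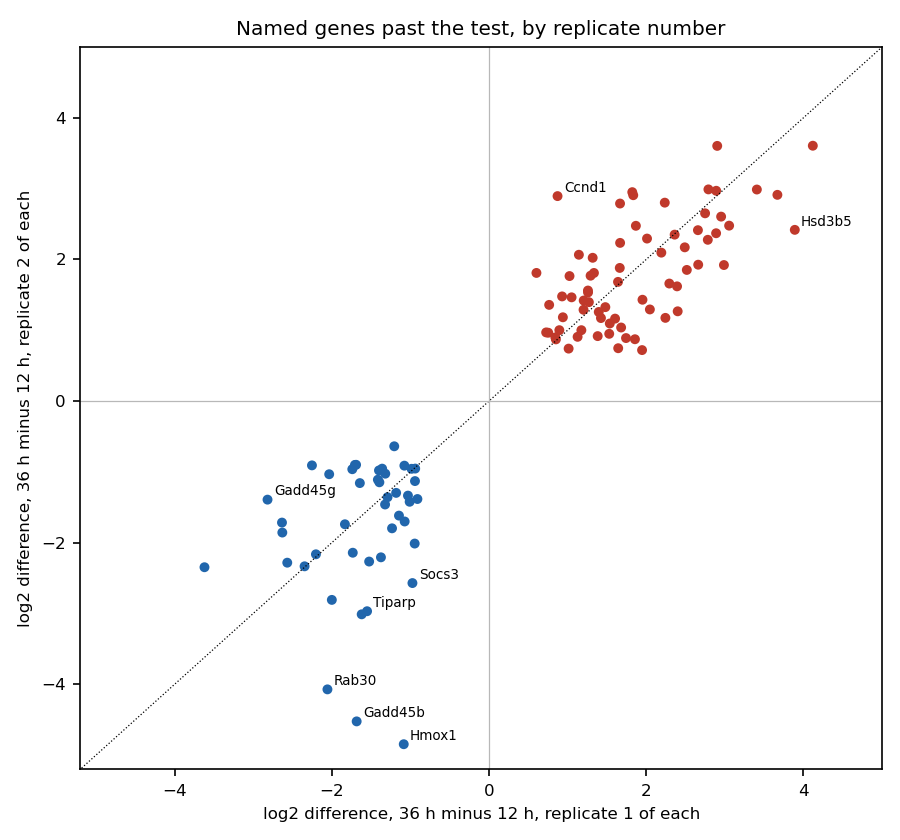
Log2 difference between 36 h and 12 h within replicate 1 (horizontal axis) and within replicate 2 (vertical axis) for the named genes that passed the test, in red where higher and in blue where lower at 36 h. The dotted line marks equal differences. All 420 rises and 177 falls past the test had groups that did not overlap. That all points have the same direction in both replicates therefore adds no support of its own. Hmox1 (-1.09 and -4.85), Gadd45b, Rab30 and Ccnd1 (0.87 and 2.89) lie farthest from the line.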

How the data were processed

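Expression was read from the authors' deposited table of linear probe set intensity for 14 arrays, with 22690 probe sets. How the values were computed from the scans was not given in the sources used here. This deposited intensity was turned into log2(intensity + 57), where 57 is the 25th percentile of all values. After 64 control probe sets were left out, those with a mean of at least 128.8, the 40th percentile, were tested. The model was limma 3.58.1 in R 4.3.3 on 7 groups, with the spread shared (7 residual degrees of freedom), and was tested on simulated data. As background served, per array, the level under which 95% of 27 bacterial control probe sets lay, 43.56 to 138.3. A lower bound divides the geometric mean at 36 h by that of, per 12 h array, the background or the probe set's own value, whichever was higher.

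Gene symbols came from the platform annotation, in which 20380 probe sets had 1 symbol, 691 several and 1555 none. The brightest probe set stood for a gene, and a gene could be a member of more than 1 list. Other probe sets of a gene are given for some genes only. Those of Mcm3, Acly, Ccna2, Cebpb, Cebpd, Atf4 and Slc39a14, for example, moved in the same direction without passing. Near-identical copies can share a probe set. Genes were named by rule: the 12 largest rises and 12 largest falls among genes past the test with arrays that did not overlap and a brighter side of at least 402.8, up to 5 genes past the test of each list by size, and a fixed set of cell cycle and liver genes whether past the test or not. The comparison, the members and the lists were chosen with earlier results of these data known. Alternatives were quantile normalization, other added constants and filters, an intensity trend, array weights, blocks by replicate number or by low 5′ signal, and arrays left out. Promoters on chromosome 18 and unplaced scaffolds were not used here.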

Additional observations from a re-analysis of the deposited data

How the results depend on the processing

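The main counts were 420 rises and 177 falls. They moved within 1.5 times under quantile normalization, a constant 4 times smaller, no filter, a stricter filter, an intensity trend and array weights. With the constant 4 times larger, falls numbered 268. With only the 4 arrays of the step they were 0 and 0, where fewer residual degrees of freedom remain, and without the 4 arrays of low 5′ signal 9 and 8, where 1 array is left at each time and is assumed to vary like the other groups. Counting every probe set past 2-fold with no test gave 669 and 381. Leaving out 1 array of the step gave 129 to 653 rises and 53 to 387 falls. Alb, which did not pass, went from -0.38 to 0.10 under quantile normalization, Foxm1 ranged from -0.21 to 1.19 and Lcn2 from -0.71 to 1.48 over single arrays left out, and Lcn2 was at -0.66 without the arrays of low 5′ signal. The cause was not tested. Of the 114 named genes past the test, 89 kept their call with no filter, 92 with array weights and 99 with the constant 4 times smaller. Under quantile normalization 110 kept it, with the constant 4 times larger 111 and with an intensity trend 109. The stricter filter left 100 of them in the test, and these 100 kept it. With the replicate number as a block, limma called 432 and 198, and 110 of the 114 kept their call. Same-numbered arrays did not deviate together throughout (correlations of -0.185 to 0.527 between groups, 0.160 for this step), so the numbers were not taken as pairs. With the low 5′ signal as a block, 505 and 245 were called, with all 114 named genes among them. Of the 35 list medians, 29 to 35 kept their sign under each alternative. With 2 arrays a group, precision is limited by the number of arrays.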

Other observations

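Single members of other marker lists passed the test although their lists held few calls. Cd5l, a macrophage protein, rose from 1435 and 543 to 2693 and 2878 (1.59, SE 0.36, limma adjusted p = 0.0262), and Cd24a, a marker of bile duct and progenitor cells, from 142 and 155 to 514 and 671 (1.65, adjusted p = 0.00297). Col3a1, a collagen of stellate cells, rose by 0.84 (adjusted p = 0.0441). The 6 bile duct and progenitor markers tested ranged from -1.14 to 1.65 with a median of -0.02, and no other passed. The 15 stellate cell and fibroblast markers ranged from -0.55 to 0.98 with a median of 0.06, and no other passed. Car3, carbonic anhydrase of fat and liver, fell from 22090 and 24318 to 6765 and 6276 (-1.82, SE 0.22, adjusted p = 0.000949). It was listed as a fat marker, but liver expresses it too, so its fall does not point to another cell type. The 3 fat markers tested summed to 23980 and 25507 at 12 h, most of it Car3. Cd5l, Cd24a, Col3a1 and Car3 were named after their values were seen. In neutrophil, lymphocyte, endothelial and erythroid markers 0 genes passed with limma.

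Some lists of abundant liver transcripts held no gene that passed with limma. The 32 proteasome genes lay within -0.43 and 0.61 with a median of 0.19, and in 18 of them both 36 h arrays were brighter than both 12 h arrays, against 23.5% of all probe sets. The 33 coagulation and complement genes had a median of -0.22, and the 16 p53 targets one of -0.29, where 4 fell without replicate 1 of 12 h. Several genes with wide 12 h arrays did not pass in spite of large differences. Btg2, an inhibitor of proliferation, was at 1344 and 9023 and then at 626 and 934 (-2.12, adjusted p = 0.0741), and Pdk4, a fasting-induced kinase, was at 1175 and 6183 and then at 453 and 797 (-2.07, adjusted p = 0.0641).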
